A study of Mus musculus with 2 samples.

Results

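The microRNA genes Mir199a-1, Mir199a-2, Mir199b and Mir214 were examined in myocytes made from C2C12, a myoblast line obtained from crushed thigh muscle of the C3H mouse strain. These 4 genes were taken by name, as a family and its neighbour, from the 2202 microRNA genes in the tables, with no threshold on their measured values. The series held 1 group of 2 libraries of total RNA, both from cells differentiated for 72 h and numbered 1 and 2 as biological replicates in the labels. No drug, genotype or time was varied, so the data give the levels of these genes and how far the replicates differed, not a response. The labels do not say whether the cultures were differentiated separately, so differences between the replicates measure the spread between 2 libraries, which may be technical.

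A microRNA gene is transcribed as a hairpin precursor. Its 5′ and 3′ arms are cut out as short mature microRNAs, and the seed near the 5′ end of a mature microRNA guides it to messenger RNAs. The miR-199 and miR-214 genes lie inside dynamin genes, which encode GTPases that pinch vesicles off membranes, on the strand opposite to the dynamin transcript. The long noncoding RNA Dnm3os carries one miR-199a copy together with miR-214, is active in mesenchymal and skeletal tissue of the embryo, and is known as a target of the transcription factor TWIST1. In skeletal muscle cells miR-214 is known to repress Ezh2, the catalytic subunit of the Polycomb repressive complex that keeps muscle genes silent in myoblasts.

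The mature sequences show which of these RNAs can be told apart by sequencing, so they are given before the counts. They were read from RefSeq's microRNA table for GRCm38.p6 (the mm10 assembly), in which all 4 genes were matched, and are written 5′ to 3′ with the seed (bases 2 to 8) in capitals.
mmu-miR-199a-5p: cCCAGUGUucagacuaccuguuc
mmu-miR-199a-3p: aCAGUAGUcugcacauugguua
mmu-miR-199b-3p: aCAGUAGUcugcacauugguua
mmu-miR-214-5p: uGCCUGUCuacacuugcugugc
mmu-miR-214-3p: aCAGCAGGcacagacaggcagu
The miR-199a-3p and miR-199b-3p sequences are identical and occur in 3 annotated hairpins, those of Mir199a-1, Mir199a-2 and Mir199b. The miR-199a-5p sequence occurs in 2 hairpins, those of Mir199a-1 and Mir199a-2. Each miR-214 arm occurs in the Mir214 hairpin alone among the 2202 annotated hairpins. Over the whole table, 78 of 1674 distinct mature sequences (4.66%) were found in more than 1 annotated hairpin. The seeds of the miR-199 and miR-214 arms differ from each other, and 1 other listed microRNA shares a seed with them: mmu-miR-761, of the gene Mir761, has the seed of miR-214-3p.

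The hairpins are shown because the bases around the arms decide where a read of a copied arm can be placed. Capitals mark the mature arms that RefSeq lists, and every hairpin has the same letters in the GENCODE M21 transcripts.
Mir199a-1: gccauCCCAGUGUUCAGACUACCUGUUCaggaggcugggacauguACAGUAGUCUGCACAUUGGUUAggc
Mir199a-2: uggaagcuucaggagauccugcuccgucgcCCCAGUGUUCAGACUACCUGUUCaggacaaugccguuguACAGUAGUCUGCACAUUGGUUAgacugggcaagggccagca
Mir199b: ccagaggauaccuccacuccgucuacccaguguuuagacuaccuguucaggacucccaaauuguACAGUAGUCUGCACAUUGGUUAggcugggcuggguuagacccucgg
Mir214: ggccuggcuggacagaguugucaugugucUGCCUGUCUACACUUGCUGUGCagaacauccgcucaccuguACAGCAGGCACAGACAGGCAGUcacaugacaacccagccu
In Mir199a-1 and Mir199a-2 the identical run around the 5p arm is 27 bases long and reaches 4 bases past the 3′ end of the mature sequence. The identical run around their 3p arm is 26 bases long, with 3 further bases before and 1 after the mature sequence. Around the 3p arm, Mir199b shares 28 bases with Mir199a-1 and 27 with Mir199a-2. The 5′ side of the Mir199b hairpin differs: the stretch that aligns with miR-199a-5p has 1 substitution, C10U, counted from 1 at the 5′ end of the mature sequence with the miR-199a-5p base first. That stretch keeps the seed of miR-199a-5p and occurs in 1 annotated hairpin, its own:
Mir199b stretch: cccaguguuUagacuaccuguuc
The capital marks the differing base. RefSeq's table lists 1 mature arm for Mir199b, its 3p arm. Whether the stretch also yields a mature microRNA cannot be read from that list.

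**Figure D1:**
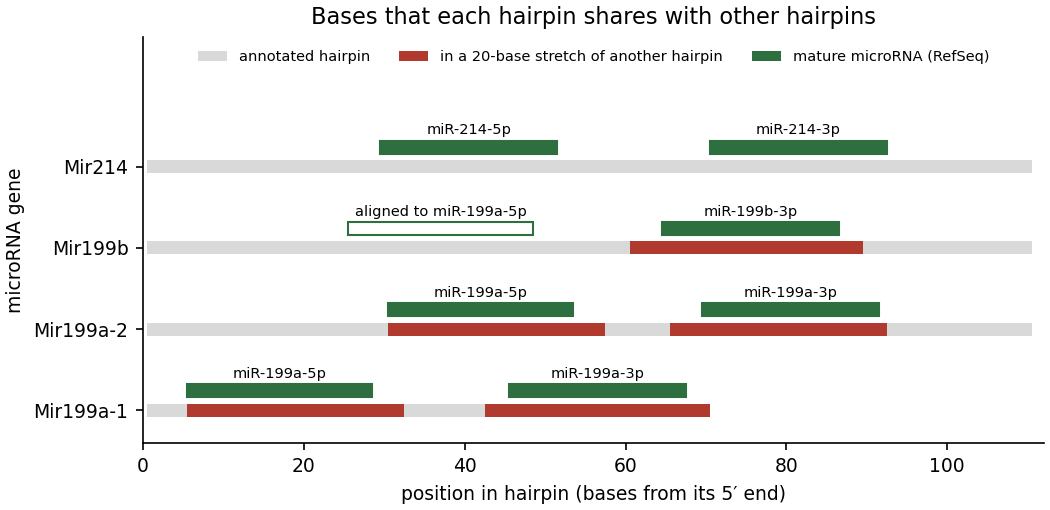
Map of the 4 annotated hairpins, drawn to scale in bases from the 5′ end. Grey bars are hairpins, red marks bases that lie in a 20-base stretch also found in another annotated microRNA hairpin, filled green bars are RefSeq mature arms, and the open bar is the Mir199b stretch aligned to miR-199a-5p. Both arms of Mir199a-1 and Mir199a-2 lie within red bases, as does the 3p arm of Mir199b, and Mir214 has none.

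Of the 20-base windows in each hairpin, 33.3% in Mir199a-1, 17.6% in Mir199a-2 and 11.0% in Mir199b were also present in another annotated hairpin, in each case that of a miR-199 gene. No window of Mir214 was. The map of shared bases shows that the red stretches of Mir199a-1 and Mir199a-2 cover their mature arms whole, so a read of an unextended arm fits at least 2 places. The deposited tables keep multi-mapped reads in an entry of their own, apart from the genes. The counts of the miR-199 genes were therefore read as counts of reads that could be placed in 1 copy, which set a lower limit on the miR-199 RNA sequenced. Which arm a counted read came from is not recorded.

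Mir199a-2 (ENSMUSG00000070126.1) spans bases 162217814 to 162217923 of mm10 chromosome 1 (plus strand), and Mir214 (ENSMUSG00000065516.1) lies 5444 bases downstream, from 162223368 to 162223477. Both are within an exon of Dnm3os (162217623 to 162225550), and both lie in an intron of the dynamin 3 gene Dnm3 on its opposite strand. Mir199a-1 (ENSMUSG00000065547.1) spans bases 21496495 to 21496564 of chromosome 9 (minus strand), in an intron of Dnm2, the widely expressed dynamin gene, which is read from the plus strand. Mir199b (ENSMUSG00000092807.1) spans bases 32318460 to 32318569 of chromosome 2 (plus strand), in an intron of Dnm1, the dynamin gene of neurons, which is read from the minus strand. No lncRNA or other host on the strand of Mir199a-1 or Mir199b is annotated in M21.

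The sense strand of microRNA genes took 7581366 of 15349205 reads (49.4%) in replicate 1 and 9865298 of 18450359 (53.5%) in replicate 2. Levels are given as CPM, counts per 1000000 assigned sense counts. Genes with 10 or more counts in both libraries were taken as detected; these were 314, all 4 described here among them. The labelled cell type was checked against skeletal muscle microRNAs: the 8 listed, led by Mir206, took 35.5% of the assigned counts in replicate 1 and 42.8% in replicate 2. Mir206 alone gave 2584038 of the list's 2693537 counts in replicate 1 and 4111798 of 4224757 in replicate 2. Mir133b had a mean of 12089 CPM, Mir499 471 and Mir208b 378. Mir1a-1, Mir1a-2, Mir133a-1 and Mir133a-2 had means of 1.03 to 3.02 CPM. These are numbered copies of Mir1a and Mir133a, and reads that fit more than 1 copy would enter no gene. Their values are therefore lower limits. By uniquely placed counts the check rests mainly on Mir206. The 10 mesenchymal genes described below took 19.6% of the assigned counts in replicate 1 and 13.8% in replicate 2. Markers of endothelial, blood and epithelial cells took small shares. The 2 endothelial genes took 0.0219% in replicate 1 and 0.00445% in replicate 2, the 5 blood genes 0.0101% and 0.0183%, and the 7 epithelial genes 0.00107% and 0.000699%. The endothelial Mir126a (217 CPM in replicate 1 and 42.9 in replicate 2) and the blood cell microRNA Mir142 (89.0 and 178 CPM) were nevertheless in the range of the miR-199 genes or above it. Of the 6 neural genes 5 were at 0 in both libraries, and 1 count was seen in all, in replicate 2. All 6 are numbered copies of Mir124a or Mir9, and reads that fit more than 1 copy would enter no gene. Their counts therefore cannot show whether neural microRNAs were absent. The part of these markers in the differences between replicates described below was not tested.

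Mir214 had the most uniquely placed reads of the group (17888 counts in replicate 1, 32838 in replicate 2). Its level was 2359 CPM in replicate 1 (exact 95% binomial interval 2325 to 2394) and 3329 CPM in replicate 2 (3293 to 3365). The mean was 2844 ± 685 CPM (SD, n = 2), which placed Mir214 34th of all microRNA genes by mean level, with ranks of 39 and 27 in the 2 libraries. Mir214 alone supplied 95.1% of the 4 genes' uniquely placed counts in replicate 1 and 97.6% in replicate 2. Together the 4 genes took 0.248% and 0.341% of the assigned counts. The intervals cover counting error only, since the reads carry no molecular identifiers that would tell copies of 1 molecule apart.

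Mir199b came next, with 655 counts (86.4 CPM, interval 79.9 to 93.3) in replicate 1 and 429 counts (43.5 CPM, 39.5 to 47.8) in replicate 2. Its mean was 64.9 ± 30.3 CPM (SD, n = 2) and its rank 150. The replicate values of Mir199b lay nearly 2-fold apart, and neither reached the range of Mir214. Its hairpin has a 5′ stretch of its own, but which arm its counts came from is not recorded. The part of that stretch in its level was not tested.

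For Mir199a-2, the neighbour of Mir214 in Dnm3os, 222 counts were found in replicate 1 and 225 in replicate 2. These equal 29.3 CPM (interval 25.6 to 33.4) and 22.8 CPM (19.9 to 26.0), with a mean of 26.0 ± 4.58 CPM (SD, n = 2) and rank 177. Mir199a-1 had the fewest counts, 54 and 150, which equal 7.12 CPM (interval 5.35 to 9.29) and 15.2 CPM (12.9 to 17.8). Its mean was 11.2 ± 5.71 CPM (SD, n = 2), at rank 208.

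The order was the same in both libraries: Mir214, then Mir199b, Mir199a-2 and Mir199a-1. No neighbours in that order overlapped in their replicate values, with 43.5 to 86.4 CPM for Mir199b against 22.8 to 29.3 for Mir199a-2, and 7.12 to 15.2 CPM for Mir199a-1. A microRNA read spans the molecule, so CPM was not divided by hairpin length. Per 100 hairpin bases the counts of Mir199a-1, whose annotated hairpin has 70 bases against 110 in the others, were 10.2 CPM in replicate 1 and 21.7 in replicate 2. On that scale Mir199a-2 had 26.6 and 20.7 CPM, so that Mir199a-1 and Mir199a-2 changed places in replicate 2. The order of all 4 genes, with Mir214 first, is an order of uniquely placed reads.

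**Figure D2:**
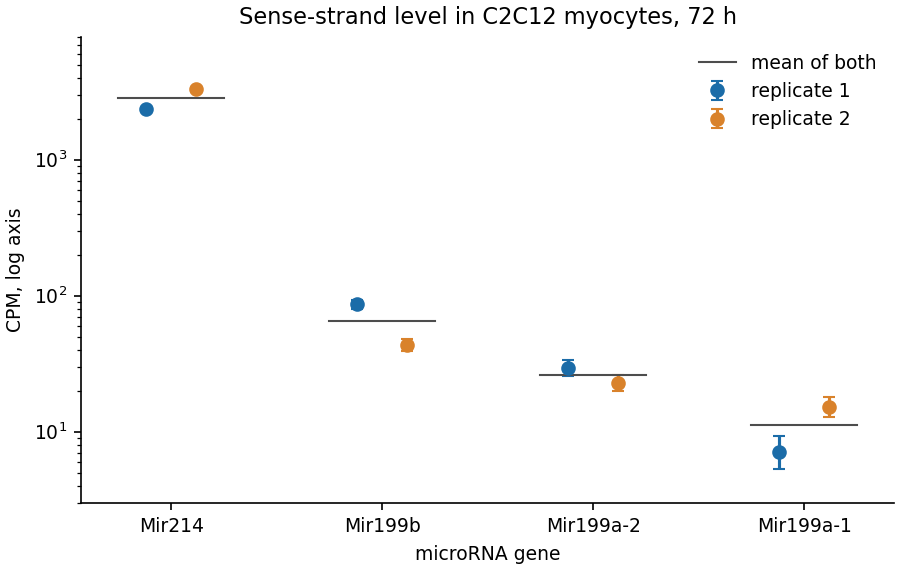
Level of each gene in CPM on a log axis, with 1 point per replicate, exact 95% binomial intervals as error bars and a line at the mean of both. Mir214 sits at 2359 and 3329 CPM, and the miR-199 genes all lie below 100 CPM. Mir214 and Mir199a-1 are higher in replicate 2, Mir199b and Mir199a-2 in replicate 1.

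The 3 miR-199 genes together had 931 uniquely placed counts (122.8 CPM) in replicate 1 and 804 (81.5 CPM) in replicate 2, or 102 ± 29.2 CPM (SD, n = 2). In the same libraries the entry of multi-mapped reads held 3378438 of the 15349205 reads of replicate 1 and 3295854 of the 18450359 of replicate 2. How many of those came from miR-199 is not recorded. Among genes with 2 listed arms, 23 had both arms in more than 1 hairpin, Mir199a-1 and Mir199a-2 among them. Of these, 4 were detected (17.4%), Mir199a-1 and Mir199a-2 themselves included, so the class is not a background apart from them. None reached 1000 CPM, the highest being Mirlet7c-2, a let-7c copy, with 54.8 CPM. Mir214 belonged to the 573 genes with each arm in 1 hairpin, of which 191 were detected (33.3%) and 51 reached a mean of 1000 CPM. A further 61 genes had 1 of their arms in more than 1 hairpin, and 40 of them were detected (65.6%) and 2 reached 1000 CPM. The part of shared arms in detection or level was not tested. These are descriptions of the tables, with no test.

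Mir199b held the larger part of the uniquely placed miR-199 counts, 70.4% in replicate 1 (exact 95% binomial interval 67.3 to 73.3) and 53.4% in replicate 2 (49.8 to 56.9). Mir199a-2 held 23.8% (21.1 to 26.7) and 28.0% (24.9 to 31.2). The share of Mir199a-1 was 5.80% (4.39 to 7.50) in replicate 1 and 18.7% (16.0 to 21.5) in replicate 2. The intervals of the replicates overlapped for Mir199a-2 and were apart for Mir199b and Mir199a-1.

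**Figure D3:**
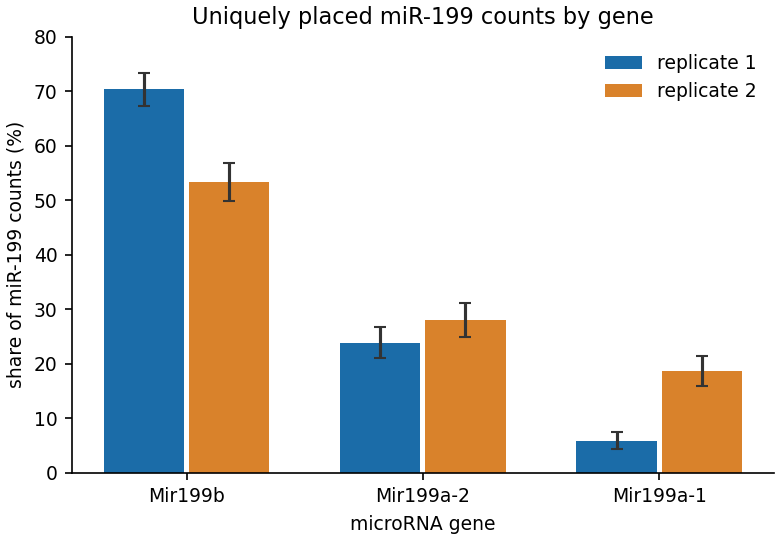
Share of each gene in the uniquely placed miR-199 counts of a library, in percent, with exact 95% binomial intervals as error bars. Mir199b takes 70.4% and 53.4%, Mir199a-2 23.8% and 28.0%, and Mir199a-1 5.80% and 18.7% in replicates 1 and 2.

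An exact binomial test, two-sided, set each gene's counts in the 2 libraries against the library totals, and its p-values were adjusted by Benjamini-Hochberg over all 314 detected genes. The test weighs counting error and compares these libraries, not conditions. All 4 genes had an adjusted p under 0.05, beside 66.6% of the detected genes, so a call was common and not particular to them. Mir214 was 1.41-fold higher in replicate 2 (log2 ratio of replicate 2 over replicate 1 of 0.50, adjusted p = 3.5e-308 by the exact binomial test), and Mir199a-1 was 2.13-fold higher there (log2 ratio 1.09, adjusted p = 1.3e-06 by the same exact test). Of the detected genes, 28.3% were called higher in replicate 2 (35.1%, against 33.2% higher in replicate 1, without Mir206 in the total). Mir199b was 1.99-fold higher in replicate 1 (log2 ratio -0.99, adjusted p = 1.1e-28, exact binomial test). Mir199a-2 was 1.28-fold higher in replicate 1 (log2 ratio -0.36, adjusted p = 0.0136, exact binomial test), where 38.2% of the detected genes were called higher. The call for Mir199a-2 was lost when all reads were taken as the total (log2 ratio -0.25, adjusted p = 0.102 in the exact binomial test). It was also lost when Mir206 was left out of the total (-0.18, adjusted p = 0.245, exact) and in the either-strand counts (-0.27, adjusted p = 0.0680, exact). The either-strand counts of Mir199a-2 were the same 222 and 225, so its log2 ratio moved there with the library total alone.

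Against the spread between replicates over all genes, the ratio of Mir214 was close to the median in size and that of Mir199a-2 was below it. The ratios of Mir199b and Mir199a-1 were well above the median, though not the largest. The median absolute log2 ratio of the 314 detected genes was 0.51, and edgeR estimated a biological coefficient of variation of 0.420. The ratio of Mir214 was larger than that of 49.0% of the detected genes, and that of Mir199a-2 larger than 35.7%. Mir199b exceeded 77.4% and Mir199a-1 exceeded 82.5%. Mir199a-1 was among the 69 detected genes with a replicate difference of more than 2-fold.

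**Figure D4:**
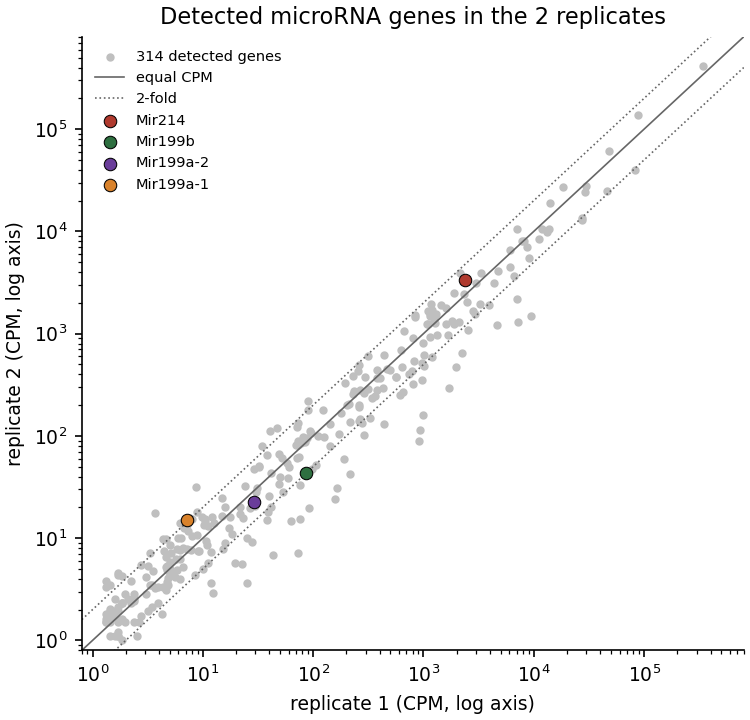
CPM of the 314 detected microRNA genes in replicate 1 (x, log axis) against replicate 2 (y, log axis), with the line of equal CPM and dotted lines at 2-fold. Mir214 and Mir199a-2 lie within the 2-fold lines, Mir199b close to the lower one and Mir199a-1 just outside the upper one, all inside the cloud of the other genes.

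Ratios between the genes within a library do not depend on how libraries are scaled. Mir214 had 80.6 counts for each count of Mir199a-2, its partner in Dnm3os, in replicate 1 and 145.9 in replicate 2, a mean ratio of 113 ± 46.2 (SD, n = 2). The ratio differed 1.81-fold between the libraries (Fisher's exact two-sided test, adjusted p = 1.1e-09 over the 6 pairs compared). All listed arms of Mir199a-2 also occur in other hairpins and neither arm of Mir214 does. The part of these shared arms in the ratio was not tested.

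The ratio of Mir214 to Mir199b was 27.3 in replicate 1 and 76.5 in replicate 2, a 2.80-fold difference (Fisher's exact test, adjusted p = 2.3e-61). The ratio of Mir214 to Mir199a-1 was 331 and 219, 1.51-fold higher in replicate 1 (adjusted p = 0.00816, Fisher's exact test). Among the miR-199 genes, Mir199b had 12.1 counts for each count of Mir199a-1 in replicate 1 and 2.86 in replicate 2 (adjusted p = 9.3e-19, Fisher's exact test). Mir199a-2 had 4.11 and 1.50 counts per count of Mir199a-1 (adjusted p = 3.4e-08, Fisher's exact test), and Mir199b had 2.95 and 1.91 per count of Mir199a-2 (adjusted p = 0.00017, Fisher's exact test). All 6 ratios differed between the libraries by more than counting error, and none kept its value within 1.5-fold. Each gene enters several of the 6 ratios, so they are not independent, and pairs of other genes were not compared. Of single detected genes 66.6% were called by the exact binomial test, so the differences are not read as a trait of this family. These tests do not include the spread between cultures.

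The strand opposite the hairpins, on which the dynamin genes are read, was nearly free of counts. Mir199a-1, Mir199a-2 and Mir199b had 0 opposite-strand counts in either library; a count of 0 allows up to 3 counts, or 0.396 CPM in replicate 1 and 0.304 in replicate 2. Mir214 had 2 opposite-strand counts in replicate 1 and 0 in replicate 2. The either-strand counts of the 4 genes were accordingly those of the sense strand, except for 17890 in place of 17888 for Mir214 in replicate 1.

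Apart from the pair in Dnm3os, 1 other microRNA gene is annotated within 10 kb of these genes. Gm23363, a predicted gene 116 bases upstream of Mir199b on the same strand, had 0 counts in replicate 1 and 1 in replicate 2, against 655 and 429 for Mir199b. Mir761, whose mature microRNA has the seed of miR-214-3p, had 0 counts in both libraries. Of the 2 listed genes with that seed, Mir214 was thus the one with counts.

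The genes most alike in level were taken as the 2 next above and the 2 next below in mean CPM over the 2 libraries. Mir214 (2844 CPM) stood between Mirlet7g (2945 ± 2438 CPM), a let-7 gene, and Mir221 (2905 ± 1429), known from proliferating cells, above it, and Mir30e (2835 ± 604) and Mir27a (2580 ± 906) below (SD, n = 2 for each). The differences among these 5 means were smaller than the SD of each. Mir199b stood between Mir26a-2 and Mir1981 above and Mir877 and Mir5121 below, over a range of mean levels from 68.4 to 57.4 CPM. Mir199a-2 stood between Mir491 and Mirlet7f-1 above and Mir7-1 and Mir32 below (28.4 to 25.0 CPM), and Mir199a-1 between Mir5114 and Mir10a above and Mir1949 and Mir208a below (11.7 to 10.3 CPM).

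Other microRNAs known from fibroblasts and mesenchymal cells gave the setting for these levels. Of 10 listed, 8 were detected, and Mir10b and Mir145b had 0 counts in both libraries. Mir21a, a microRNA raised in fibrosis and many tumours, had 60909 ± 30275 CPM, Mir22 54496 ± 9490 and Mir143 35574 ± 15314 (SD, n = 2 for each). Mir100 had 8104 ± 43.7 CPM, Mir31 5419 ± 5545 and Mir145a, transcribed together with Mir143, 2193 ± 419. The mean of Mir214, 2844 CPM, lay between those of Mir31 and Mir145a, but in replicate 2 Mir214 (3329 CPM) was above both Mir31 (1498) and Mir145a (2489). Mir152 had 456 ± 203 CPM, above all 3 miR-199 genes, and Mir10a, of the Hoxb cluster, 11.5 ± 5.21 CPM, next to Mir199a-1.

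By the exact binomial test 7 of the 8 detected mesenchymal genes differed between the libraries, 4 higher in replicate 1 (Mir21a, Mir143, Mir31 and Mir10a) and 3 higher in replicate 2 (Mir22, Mir145a and Mir152), beside 66.6% of all detected genes. Among genes with at least 100 counts in both libraries, as all of the 8 but Mir10a had, 88.8% were called. Mir100 had 8135 and 8073 CPM (adjusted p = 0.208, exact binomial test). The median log2 ratio of replicate 2 over replicate 1 was -0.46 over the 8 genes and -0.09 over all detected genes. Mir214 and Mir199a-1 thus had the direction of Mir22, Mir145a and Mir152. Mir199b and Mir199a-2 had that of Mir21a, Mir143, Mir31 and Mir10a. A shared direction is not read as a link between these genes.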

How the data were processed

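MicroRNA-seq libraries of 2 biological replicates were used as the authors deposited them: a table per library with read counts per microRNA gene, whole numbers with no normalization visible in the values. Per the deposited notes, reads were placed on mm10 and counted over GENCODE M21; per the labels' protocols, adapters were trimmed. Which aligner and counter were used is not given in the sources used here. Each table has 3 count columns, read as either strand, own strand and opposite strand, because nearly all assigned counts lie in the second. The 4 further entries (unmapped, multi-mapped, unassigned, ambiguous) stayed out of the CPM totals and tests and entered only the reads per library and the alternative with all reads as the total.

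All 2202 identifiers matched M21. CPM, SDs, ranks, exact Clopper-Pearson intervals, binomial and Fisher tests were computed with Python 3.11.15 and scipy 1.17.1, and dispersion with edgeR 4.0.16 from TMM-scaled counts with only an intercept. Hairpin windows of 20 bases were searched on both strands of all annotated hairpins; no genome sequence was used. On simulated libraries with counting error only, the binomial test recovered 90.9% of tested genes changed 2-fold and 76.6% of those changed 1.5-fold, and an imposed coefficient of variation of 0.4 was estimated as 0.379.

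Named genes were these 4, the 2 nearest in level on each side, annotated neighbours within 10 kb and the detected mesenchymal list. The 4 genes, though taken by name, and the lists and tests were chosen with earlier results of these data known. Seed sharers and genes grouped by shared arms were added after the values were seen. Alternatives were TMM and DESeq2 1.42.0 scaling, either-strand counts, other totals, minimum counts and window lengths, a pseudocount of 1 CPM, miR-199 genes summed and each replicate left out.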

Additional observations from a re-analysis of the deposited data

Results flagged for a closer look

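Signals above the 3 counts that a count of 0 allows were present in reads that enter no gene level. The multi-mapped entry held 3378438 reads in replicate 1 and 3295854 in replicate 2, against 931 and 804 uniquely placed reads of the miR-199 genes. A further 903243 reads of replicate 1 and 1027420 of replicate 2 were placed once but outside the sense strand of any microRNA gene. The tables do not say which sequences these reads had.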

How the results depend on the processing

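The directions between replicates held for Mir214, Mir199b and Mir199a-2 under every alternative run. The log2 ratio of Mir214 was 0.50 in the main run, 0.53 with TMM scaling and 0.67 without Mir206 in the total. With the 3 miR-199 genes summed, the log2 ratio was -0.59 (adjusted p = 3.7e-17, exact binomial test), which reverses the direction of Mir199a-1 because Mir199b supplies most of the sum; the summed level was 102 CPM in place of 11.2, 26.0 and 64.9. The call for Mir199a-2 was lost with the total of either-strand counts (log2 ratio -0.27), all reads as the total (-0.25) and the total without Mir206 (-0.18). Levels moved with the total used. Over all reads they were 1473 CPM for Mir214, 33.0 for Mir199b, 13.3 for Mir199a-2 and 5.82 for Mir199a-1. Without Mir206 in the total they were 4643, 103, 41.8 and, for Mir199a-1, 18.4 CPM. These totals shift the median log2 ratio of all genes by 0.11 and 0.18. Leaving out a replicate gives the other library's value, which with 2 libraries says nothing of stability: Mir199b to Mir199a-1 went from 7.49 to 2.86 or 12.1. Of the 86 other recomputed values, 72 stayed within the replicate SD, on the same side of the threshold or, for gene counts, within 1.5 times. At a minimum of 100 counts Mir199a-1 was not tested. Depth limits Mir199a-1, with 54 counts in replicate 1. Listed arms of all 3 miR-199 genes occur in other hairpins, so their counts were read as lower limits. No paired analysis was possible because there is 1 group.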
